A study of Mus musculus with 6 samples.

Results

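The glucocorticoid receptor gene Nr3c1, its close relative Nr3c2 and 6 genes of the same hormone pathway were followed in the testes of mice on a control or an ethanol diet. The 8 genes were fixed by name: Nr3c1, Nr3c2, Fkbp5, Tsc22d3, Sgk1, Hsd11b1, Klf9 and Ddit4. All 8 were found among the 45777 genes of the table and all 8 were among the 25073 genes with enough reads to be tested. Total RNA had been sequenced from testes of wild-type mice, with 3 libraries from ethanol-fed and 3 from control-fed animals after 16 weeks. Per the labels, each mouse received 10 ml of LDC liquid diet a day, and 5 days on the control form of that diet came first. Both groups share the liquid diet and the genotype and are labelled as ethanol-fed or control-fed. No strain, age or ethanol content of the diet is stated in the sources used here, and nothing in the labels ties the libraries of a diet to separate animals, so p-values measure the spread between these libraries, which may be technical.

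Glucocorticoids are adrenal hormones of the stress response. The receptor encoded by Nr3c1 waits in the cytoplasm in a complex with HSP90 chaperones, moves to the nucleus when it binds hormone, and switches genes on or off at glucocorticoid response elements in DNA. In the testis it is known from Leydig, Sertoli and peritubular cells. Glucocorticoids act on testosterone synthesis in Leydig cells, and local enzymes set how much active hormone reaches the receptor. Fkbp5, Tsc22d3, Sgk1, Klf9 and Ddit4 are induced by the hormone in many tissues and are used as readouts of receptor activity.

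No gene of the 8 passed the test over all genes. The largest differences were those of Sgk1, 1.30-fold higher in the ethanol-fed testes, and of the mineralocorticoid receptor Nr3c2, 1.28-fold higher, while Fkbp5 and Ddit4, 2 of the classical target genes, had fold values of 1.02 and 1.03. By the quasi-likelihood test of edgeR, adjusted after Benjamini and Hochberg, the lowest adjusted p of the 8 was 0.241, and 0% of the 25073 genes passed an adjusted p of 0.05. DESeq2 called 330 genes, or 1.81% of the 18265 genes to which it gave an adjusted p. It gave Hsd11b1 no adjusted p and called 0 of the other 7 genes, with its lowest values at 0.163 for Nr3c2 and 0.201 for Sgk1. At an unadjusted edgeR p under 0.05 there were 2 of 8, or 25%, against 3343 genes or 13.3% of all genes tested. The 3 libraries of one diet lay apart from the 3 of the other for 4 of 8 in CPM, the usual depth-scaled read count, here with TMM library factors, against 18.8% of all genes tested. For 3 of these the ethanol libraries were the higher ones (9.76% of all genes) and for 1 the lower (9.01% of all genes). In TPM they lay apart for 2 of 8, against 16.1% of all genes tested. The median log2 fold change of the 8 was 0.17, with 7 of 8 above 0, beside 0.0065 and 51.5% above 0 over all genes tested. The count at an unadjusted p under 0.05 was 0 without control library 3, 1 without ethanol library 1, 3 without control library 2 and 4 without ethanol library 3. It was also 3 with library totals alone and with a block for the replicate number. The share of all genes was not computed for these fits.

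**Figure D1:**
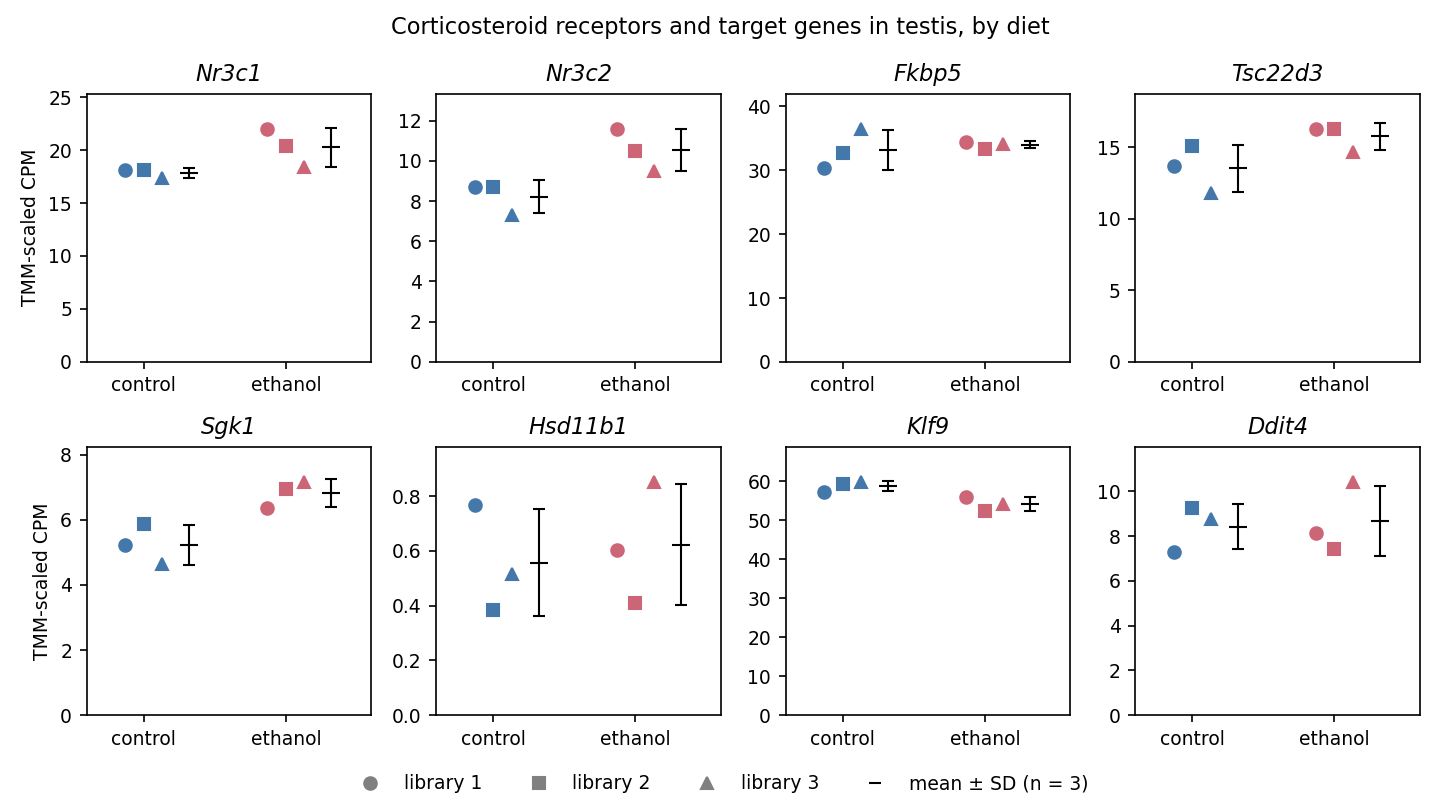
TMM-scaled CPM (y axis, from 0) of the 8 genes in the 3 control (blue) and 3 ethanol (red) libraries, with the marker shape giving the library number and the black bar the mean ± SD (n = 3). The ethanol points all lie above the control points for Nr3c1, Nr3c2 and Sgk1 and below them for Klf9.

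Total counts ran from 38935654 to 47420249 per library, and an exact two-sided permutation test between diets gave p = 0.2 (n = 3 and 3, where 0.1 is the smallest that 3 against 3 allows). The tissue label held: summed markers of elongating spermatids stood at 42200 to 48944.5 TPM, the read count per transcript length scaled so that each library has the same sum. Markers of several somatic cell types moved with the diet. The 10 Sertoli markers summed to 1132 to 1337 TPM in controls and 1473 to 1661 TPM with ethanol, 9 of 10 with a log2 fold change above 0. The 8 macrophage markers summed to 90.0 to 103 TPM and 105 to 116 TPM, with 7 above 0 and 1 below, the lowest at -0.44. The 6 blood markers summed to 56.8 to 101 TPM and 133 to 159 TPM, with 5 above 0 and 1 below, the lowest at -0.45. The 8 spermatocyte markers summed to 1477 to 1636 TPM and 1368 to 1443 TPM, all 8 below 0. The sums of the 9 Leydig markers overlapped, at 1062 to 1233 TPM and 1095 to 1179.7 TPM. Singly these markers went both ways, with 4 log2 fold changes above 0 and 5 below, from -1.30 to 0.55. In CPM the ethanol libraries lay wholly above the controls for 1 of them (9.76% of all genes). They lay wholly below for 2 (9.01% of all genes). The 6 adipose markers ranged from 17.0 to 27.5 TPM in controls and from 25.1 to 66.8 TPM with ethanol, the highest in ethanol library 1. The part of these cell types in the values below was not tested, and in whole tissue a change in the number of cells of a type cannot be told apart from a change in RNA per cell.

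Levels per transcript length set the 8 genes in a clear order that both diets shared. Klf9 was the most abundant, at 22.3 to 26.4 TPM over the 6 libraries, followed by Fkbp5 at 14.6 to 18.3 TPM, Tsc22d3 at 9.41 to 14.9 TPM and Ddit4 at 8.04 to 11.4 TPM. The receptor Nr3c1 itself stood lower, at 4.93 to 7.09 TPM, with Sgk1 at 3.28 to 5.31 TPM and Nr3c2 at 2.31 to 4.42 TPM. Hsd11b1 was last, at 0.490 to 1.08 TPM. Ranges over the libraries did not overlap between Klf9 and Fkbp5, between Ddit4 and Nr3c1, or between Nr3c2 and Hsd11b1. They overlapped between the other neighbours, although within each library Fkbp5 was above Tsc22d3, Tsc22d3 above Ddit4 and Sgk1 above Nr3c2 in 6 of 6 libraries, and Nr3c1 above Sgk1 in 5 of 6.

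**Figure D2:**
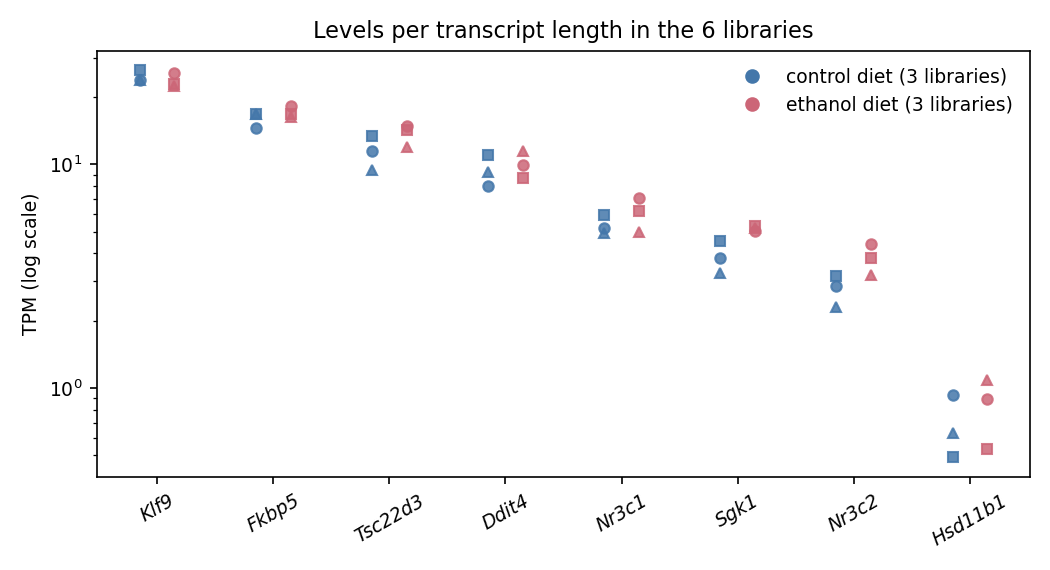
TPM (y axis, log scale) of the 8 genes in control (blue) and ethanol (red) libraries, ordered by their mean over the 6 libraries, with the marker shape giving the library number (circle 1, square 2, triangle 3). Klf9 stands at the top, at 22.3 to 26.4 TPM, and Hsd11b1 at the bottom, at 0.490 to 1.08 TPM.

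Hsd11b1 encodes the enzyme that turns inactive 11-dehydrocorticosterone back into corticosterone, and in the testis it is an enzyme of Leydig cells. The gene (Gene ID 15483, mm10 chromosome 1 from 193221640 to 193264045, coordinates from RefSeq's GRCm38.p6 gene table throughout) had 36, 17 and 22 reads in control libraries 1, 2 and 3 and 24, 18 and 35 reads in ethanol libraries 1, 2 and 3. In CPM these were 0.769, 0.383 and 0.517 in controls and 0.604, 0.412 and 0.853 with ethanol. The diets overlapped throughout, and the highest and the second highest library belonged to different diets. Its log2 fold change stood at 0.15 (SE 0.37, adjusted p = 0.896 by edgeR), with a 95% interval from 0.639-fold to 1.93-fold. Counting error alone gives a coefficient of variation of 19.9% at its mean of 25.3 reads, against 35.2% between control libraries and 35.5% between ethanol libraries. Its sign turned without control library 2 (-0.06) and without ethanol library 3 (-0.15).

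Among the other genes of hormone supply, H6pd, which makes the cofactor that Hsd11b1 uses in the endoplasmic reticulum, was at 15.7 ± 0.77 CPM on the control diet and 18.6 ± 0.70 CPM on ethanol (SD, n = 3), without overlap. Its log2 fold change was 0.25 (SE 0.08, adjusted p = 0.246 by edgeR). Abcb1b, a P-glycoprotein pump that exports steroids and drugs from cells, stood at 0.987 ± 0.071 and 1.81 ± 0.19 CPM, also without overlap, with 0.88 as its log2 fold change (SE 0.20, adjusted p = 0.153 by edgeR) from 39 to 82 reads per library. Its companion Abcb1a was at 0.13 (SE 0.11), and Crhr1, a receptor of corticotropin-releasing hormone, at 0.37 (SE 0.22), or 0.23 without ethanol library 3 and 0.14 on log2(TPM + 1). Of the 14 genes on this list 7 had enough reads to be tested, 0 were called, and the median was 0.13. It was 0.199 without control library 1 and 0.0799 without ethanol library 1. Hsd11b2, the enzyme that inactivates corticosterone, had at most 4 reads in any library, and so did Cyp11b2 of aldosterone synthesis. Cyp11b1, the last enzyme of corticosterone synthesis, had at most 3 reads and the adrenal receptor Mc2r at most 5, so that defining markers of the adrenal cortex were at or near 0. Cyp21a1 was present at 1.84 ± 0.91 and 1.71 ± 0.27 CPM, and its reads may be shared with a near-identical pseudogene.

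Nr3c1, the glucocorticoid receptor (Gene ID 14815, mm10 chromosome 18 from 39410545 to 39519421), was at 18.1, 18.1 and 17.3 CPM in control libraries 1, 2 and 3 and at 22.0, 20.4 and 18.4 CPM in ethanol libraries 1, 2 and 3. All 3 ethanol libraries were above all 3 controls, with ethanol library 3 the nearest to the controls. On the log2 scale the difference was 0.18 (SE 0.09, adjusted p = 0.414 by edgeR), or 1.13-fold with a 95% interval from 0.991 to 1.30. On the TPM scale the diets overlapped, at 4.93 to 5.92 in controls and 4.97 to 7.09 with ethanol. The estimate ran from 0.12 without ethanol library 1 to 0.24 without ethanol library 3.

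Nr3c2, the mineralocorticoid receptor, binds glucocorticoids with high affinity where no enzyme removes them, and it shares DNA elements with Nr3c1. The gene (Gene ID 110784, mm10 chromosome 8 from 76898083 to 77245012) was at 8.70, 8.68 and 7.29 CPM on the control diet and 11.6, 10.5 and 9.50 CPM on ethanol. Every ethanol library was above every control, on CPM and on TPM. The edgeR estimate on the log2 scale was 0.36 (SE 0.12, adjusted p = 0.241 by edgeR), with a 95% interval from 1.07-fold to 1.54-fold that holds for this gene taken alone. It ran from 0.27 without control library 3 to 0.42 without ethanol library 3 among fits that leave out 1 library.

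The balance between the 2 receptors was a ratio of TPM within each library, so that it did not depend on the scaling of libraries. Nr3c2 stood at 0.550, 0.535 and 0.468 of Nr3c1 in the control libraries and at 0.622, 0.617 and 0.647 in the ethanol libraries. The ethanol values were all higher, with means of 0.518 ± 0.0435 and 0.629 ± 0.016 (SD, n = 3). The exact two-sided permutation test gave p = 0.1, the smallest it can give for 3 against 3, and 0.45 after Benjamini-Hochberg adjustment over the 9 ratios computed, which were chosen with earlier values known. The progesterone receptor gene Pgr had 0 reads in every library.

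Fkbp5 encodes FKBP51, a co-chaperone that holds the receptor in a state of low hormone affinity and is itself induced by glucocorticoids, forming a short feedback loop. It (Gene ID 14229, mm10 chromosome 17 from 28398753 to 28486149) was at 30.4, 32.6 and 36.5 CPM on the control diet and 34.5, 33.4 and 34.1 CPM on ethanol. In CPM the ethanol values lay inside the control range. In TPM the diets overlapped, with ethanol libraries 1 and 2, at 18.34 and 16.88, above the highest control, at 16.85. The log2 fold change was 0.03 (SE 0.08, adjusted p = 0.895 by edgeR), with a 95% interval from 0.906-fold to 1.16-fold. It ran from -0.03 without control library 1 to 0.10 without control library 3. Its paralog Fkbp4, which encodes FKBP52 and raises hormone affinity, was far more abundant, at a mean of 440 TPM over the 6 libraries against 16.6 TPM. Fkbp5 was 0.0363 ± 0.0028 of Fkbp4 in controls and 0.0392 ± 0.0021 with ethanol (exact permutation p = 0.3, and 0.54 after Benjamini-Hochberg adjustment over the 9 ratios).

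The other chaperones of the receptor complex were mostly lower with ethanol, by small amounts. Of 18 genes tested, 15 had a log2 fold change below 0, the median was -0.07, and 0 were called. The ethanol libraries lay wholly below the controls for 6 of 18 (9.01% of all genes) and wholly above for 1. Hsp90aa1, the inducible HSP90 and one of the more abundant messages here, was at 2192 ± 94.4 and 1992 ± 99.6 CPM, with -0.14 as its log2 fold change (SE 0.06, adjusted p = 0.336 by edgeR). Ptges3, the p23 protein that stabilises the hormone-binding state, had a log2 fold change of -0.13 (SE 0.06), while Hspa8, the constitutive HSC70, had one of 0.16 (SE 0.06). On log2(TPM + 1) the list's median was -0.017 where that of all genes was 0.044, and without control library 2 it was -0.117 by edgeR. The summed spermatocyte markers were lower in the same ethanol libraries, at 1368 to 1443 TPM against 1477 to 1636 TPM, and their part in these values was not tested. The paralog pair Hspa1a and Hspa1b is nearly identical in sequence, so their counts are uncertain.

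Coregulators, which the bound receptor recruits to open or close chromatin, had 13 of 18 log2 fold changes above 0 and a median of 0.11, with 0 called. Nrip1, a corepressor of nuclear receptors, was at 15.3 ± 2.52 and 19.4 ± 0.52 CPM without overlap, or 0.34 on the log2 fold scale (SE 0.11, adjusted p = 0.239 by edgeR), and at 0.22 without control library 3. The Mediator subunit Med14 was at 0.31 (SE 0.11) and the acetyltransferase Ep300 at 0.23 (SE 0.11). The coactivator genes Ncoa1, Ncoa2 and Ncoa3 stood at -0.04, 0.15 and 0.11, each with overlap between the diets. Without ethanol library 1 the median was 0.0553.

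Tsc22d3 encodes GILZ, a leucine zipper protein that carries part of the anti-inflammatory action of glucocorticoids and is needed by spermatogonia. It (Gene ID 14605, mm10 chromosome X from 140539528 to 140600522) was at 13.7, 15.1 and 11.8 CPM on the control diet and 16.3, 16.3 and 14.6 CPM on ethanol. Ethanol libraries 1 and 2 were the highest of the 6, and ethanol library 3 was below control library 2. Its log2 fold change stood at 0.22 (SE 0.11, adjusted p = 0.411 by edgeR), with a 95% interval from 0.990-fold to 1.37-fold. It ran from 0.12 without control library 3 to 0.30 without control library 2. The related genes Tsc22d1, Tsc22d2 and Tsc22d4 stood at 0.03 (SE 0.06), -0.05 (SE 0.07) and -0.15 (SE 0.07).

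Sgk1 encodes a serine/threonine kinase that both corticosteroid receptors induce within hours and that raises sodium transport and cell survival. It (Gene ID 20393, mm10 chromosome 10 from 21882184 to 21999903) was at 5.21, 5.86 and 4.63 CPM on the control diet and 6.35, 6.95 and 7.16 CPM on ethanol. Every ethanol library was above every control, on CPM and on TPM. On the log2 scale the difference was 0.38 (SE 0.13, adjusted p = 0.241 by edgeR), with a 95% interval from 1.07-fold to 1.58-fold that holds for this gene taken alone. It ran from 0.30 without control library 3 to 0.47 without control library 2. Of its paralogs, Sgk3 was at 39.4 ± 0.98 and 46.0 ± 1.23 CPM without overlap, or 0.22 on the log2 fold scale (SE 0.07, adjusted p = 0.195 by edgeR). Sgk2 was lower, at 1.48 ± 0.14 and 0.894 ± 0.176 CPM, or -0.72 on the log2 fold scale (SE 0.23, adjusted p = 0.222 by edgeR).

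Among promoters of the 8 genes, 1 of Sgk1 held the complete consensus pair of a glucocorticoid response element, and it is shown because Sgk1 had the smallest p of the 8. RefSeq's promoter table (GRCm38.p6, 250 bases before to 50 after each start) matched 7 of the 8 genes with 14 windows. The pair was searched as the hexamer AGAACA, 3 bases of any kind, and TGTTCT, which reads the same on both strands. It was found in 3 of 32851 windows (0.0091%). At least 1 hexamer, either AGAACA or TGTTCT, was in 19.0% of all windows. It was in 4 of the 14 windows of these genes, or 28.6%, 1 of them of Tsc22d3 and the others of Sgk1. In the window below (chr10:21993640-21993939, plus strand, 5′ to 3′) the hexamers are in capitals, and the complete pair begins 189 bases before the start. It is 1 of 6 annotated starts of Sgk1, whose reads were counted together, so that no value here belongs to this start alone. The second window, of Tsc22d3 (chrX:140600473-140600772, minus strand), held a single hexamer and no pair and is shown for comparison.
Sgk1: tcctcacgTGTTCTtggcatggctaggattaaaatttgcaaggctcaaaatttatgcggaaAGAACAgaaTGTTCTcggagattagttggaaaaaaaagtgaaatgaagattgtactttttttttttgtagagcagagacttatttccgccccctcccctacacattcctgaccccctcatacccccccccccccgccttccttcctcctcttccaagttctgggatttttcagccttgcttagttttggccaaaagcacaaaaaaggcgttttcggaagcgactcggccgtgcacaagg
Tsc22d3: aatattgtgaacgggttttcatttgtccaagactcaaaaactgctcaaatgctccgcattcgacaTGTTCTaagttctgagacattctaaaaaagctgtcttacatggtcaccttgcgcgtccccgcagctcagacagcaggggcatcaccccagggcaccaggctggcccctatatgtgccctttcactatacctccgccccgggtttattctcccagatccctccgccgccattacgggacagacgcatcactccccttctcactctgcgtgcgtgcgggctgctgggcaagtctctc
Windows of Fkbp5, Klf9, Ddit4, Nr3c2 and Hsd11b1 held neither hexamer, which says only that these letters are not in those 300 bases. A looser pair, GNACA and TGTNC with 3 bases between, was in 0.475% of all windows and in 6 of 42 windows of other glucocorticoid-induced genes, namely Map3k6, Mt1, Trim63, Txnip and, with 2 overlapping windows, Fam107a. At least 1 hexamer was in 5 of those 42 windows, or 11.9%, against the 19.0% of all windows. Genes with the looser pair had log2 fold changes of 0.17 (SE 0.13) for Map3k6, 0.06 (SE 0.07) for Mt1 and 0.0008 (SE 0.23) for Trim63. Those of Txnip and Fam107a were -0.04 (SE 0.07) and 0.19 (SE 0.18).

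Klf9, a zinc finger repressor that glucocorticoids and thyroid hormone induce, was the 1 gene of the 8 that was lower with ethanol. It (Gene ID 16601, mm10 chromosome 19 from 23141226 to 23168129) was at 57.3, 59.1 and 59.8 CPM on the control diet and 55.8, 52.3 and 54.1 CPM on ethanol. The diets did not overlap in CPM but they overlapped in TPM, at 23.8 to 26.4 and 22.3 to 25.7. The edgeR estimate on the log2 scale was -0.12 (SE 0.06, adjusted p = 0.444 by edgeR), with a 95% interval from 0.837-fold to 1.01-fold, and -0.06 on log2(TPM + 1). Klf15, which acts beside Klf9 downstream of the receptor, was at 8.53 ± 1.23 and 10.6 ± 0.30 CPM without overlap, or 0.32 on the log2 fold scale (SE 0.12, adjusted p = 0.301 by edgeR), and at 0.19 without control library 1. Klf13 and Klf16, 2 near relatives, stood at 0.18 (SE 0.17) and -0.20 (SE 0.14).

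Ddit4 encodes REDD1, a stress protein through which glucocorticoids and low oxygen brake the growth kinase complex mTORC1. It (Gene ID 74747, mm10 chromosome 10 from 59949675 to 59951770) was at 7.29, 9.24 and 8.75 CPM on the control diet and 8.16, 7.43 and 10.4 CPM on ethanol. The diets overlapped, with the highest value in ethanol library 3 and the lowest in control library 1. The log2 fold change was 0.04 (SE 0.15, adjusted p = 0.93 by edgeR), with a 95% interval from 0.825-fold to 1.28-fold. Its sign turned without control library 1 (-0.06) and without ethanol library 3 (-0.12).

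**Figure D3:**
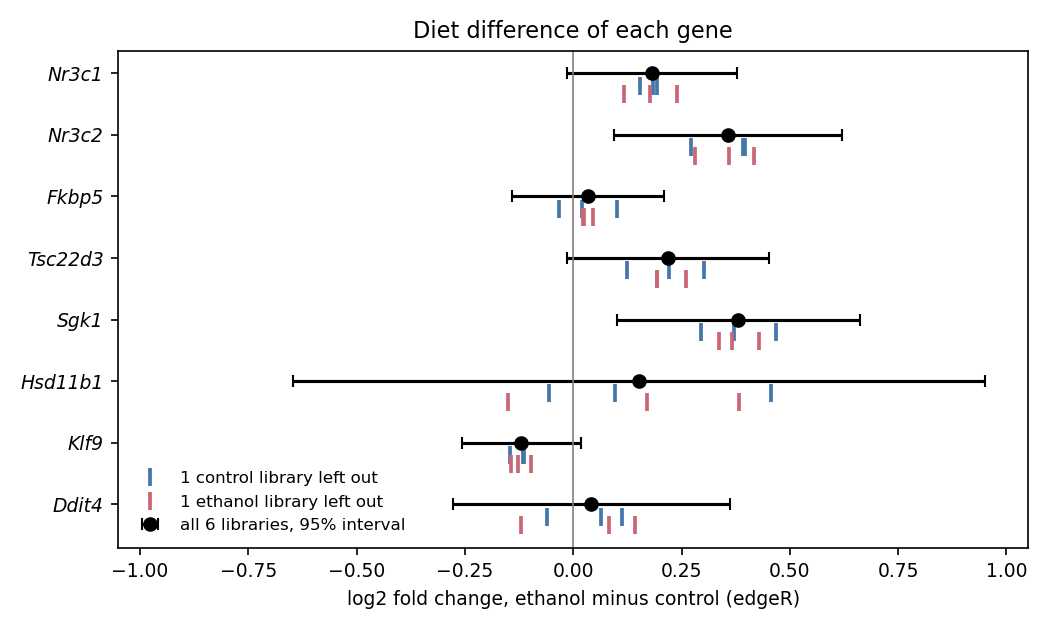
Log2 fold change (x axis, ethanol minus control, edgeR) of each of the 8 genes with its 95% interval in black, and below it the values with 1 control library (blue) or 1 ethanol library (red) left out. The intervals of Nr3c2 and Sgk1 lie above 0, from 0.09 to 0.62 and from 0.10 to 0.66, and the widest is that of Hsd11b1.

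In the mTORC1 list around Ddit4, 12 of 15 genes had a log2 fold change above 0, with a median of 0.11 and 0 called. At an unadjusted p under 0.05 there were 6 of 15, against 13.3% of all genes tested. Rictor, the scaffold of the second mTOR complex, was at 63.6 ± 2.91 and 74.0 ± 1.06 CPM (log2 fold change 0.22, SE 0.06, adjusted p = 0.187 by edgeR), and Tsc1, a subunit of the TSC complex through which REDD1 acts, at 0.19 (SE 0.07, adjusted p = 0.251 by edgeR). Both lay apart between the diets, as did 18.8% of all genes tested. Akt1s1, the mTORC1 inhibitor PRAS40, went the other way, at 22.2 ± 0.74 and 18.7 ± 0.88 CPM (-0.24, SE 0.08, adjusted p = 0.235 by edgeR). Mtor itself stood at -0.05 (SE 0.06) and the paralog Ddit4l at 0.14 (SE 0.09). Without control library 3 the median was 0.063 and without control library 2 it was 0.18.

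A wider list of 40 glucocorticoid-induced genes had 37 tested, of which 27 were above 0 with a median of 0.15, and 0 were called. There were 4 of 37 with an unadjusted p under 0.05, against 13.3% of all genes, and the ethanol libraries lay wholly above the controls for 5 of 37 (9.76% of all genes) and wholly below for 0 (9.01% of all genes). The 3 of smallest p were Foxo3, a transcription factor of fasting and stress, at 40.6 ± 3.47 and 47.7 ± 4.43 CPM (log2 fold change 0.23, SE 0.09), Rgs2, a brake on G protein signalling, at 9.58 ± 0.47 and 11.5 ± 0.74 CPM (0.27, SE 0.10), and Klf15. Their adjusted p-values by edgeR were between 0.286 and 0.301. The fourth gene with an unadjusted p under 0.05 was Fbxo32, a ubiquitin ligase of muscle wasting, at 0.53 (SE 0.23, adjusted p = 0.353 by edgeR) with overlap between the diets. Among others of the list, named after their values were seen, Cebpd was at 0.51 (SE 0.25), Cdkn1a at 0.27 (SE 0.19), Mt2 at 0.03 (SE 0.07), Per1 at -0.07 (SE 0.09) and Dusp1 at -0.18 (SE 0.14), all with overlap. The list's median was 0.074 without ethanol library 3. The largest estimate of the list, named after its value was seen, was 1.29 (SE 0.65, adjusted p = 0.427 by edgeR) for Pck1, an enzyme of glucose synthesis also made in fat. Pck1 had 6, 8 and 15 reads in control libraries 1, 2 and 3 and 45, 14 and 7 reads in ethanol libraries 1, 2 and 3, so its highest value lay in the library with the most adipose marker RNA, whose part was not tested. The liver enzymes Tat and G6pc and the decoy receptor Il1r2 had too few reads to be tested.

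The list of mineralocorticoid-responsive transport genes had 6 of 9 tested genes above 0, with a median of 0.24 and 0 called. Nedd4l, a ubiquitin ligase that Sgk1 phosphorylates, was at 4.96 ± 0.43 and 6.34 ± 0.59 CPM, or 0.35 on the log2 fold scale (SE 0.13, adjusted p = 0.273 by edgeR), and Wnk1 at 0.28 (SE 0.15). Wnk1 ran from 0.15 without ethanol library 1 and 0.17 without control library 3 to 0.43 without ethanol library 3 and 0.44 without control library 2. The epithelial sodium channel genes Scnn1b and Scnn1g had too few reads to be tested. On log2(TPM + 1), a scale on which low genes move little, the median was 0.071, and without ethanol library 1 it was 0.084 and without control library 1 it was 0.12.

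Inflammatory genes that the receptor represses were scarce, with 7 of 15 tested. Of these 5 were below 0, the median was -0.46, and 0 were called. Il1b was at 1.16 ± 0.21 CPM on the control diet and 0.767 ± 0.121 CPM on ethanol, without overlap in CPM and with overlap in TPM, or -0.60 on the log2 fold scale (SE 0.25, adjusted p = 0.333 by edgeR). The adhesion genes Vcam1 and Icam1 stood at 0.09 (SE 0.11) and 0.05 (SE 0.18). The sign of Vcam1 turned without ethanol library 1 (-0.03), and that of Icam1 without ethanol library 1 (-0.0085) or control library 3 (-0.0022). The list's median was -0.16 without control library 2 and -0.078 on log2(TPM + 1). The summed macrophage markers were higher with ethanol, at 105 to 116 TPM against 90.0 to 103 TPM, with 7 of 8 above 0 and 1 below. Their part here was not tested.

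**Figure D4:**
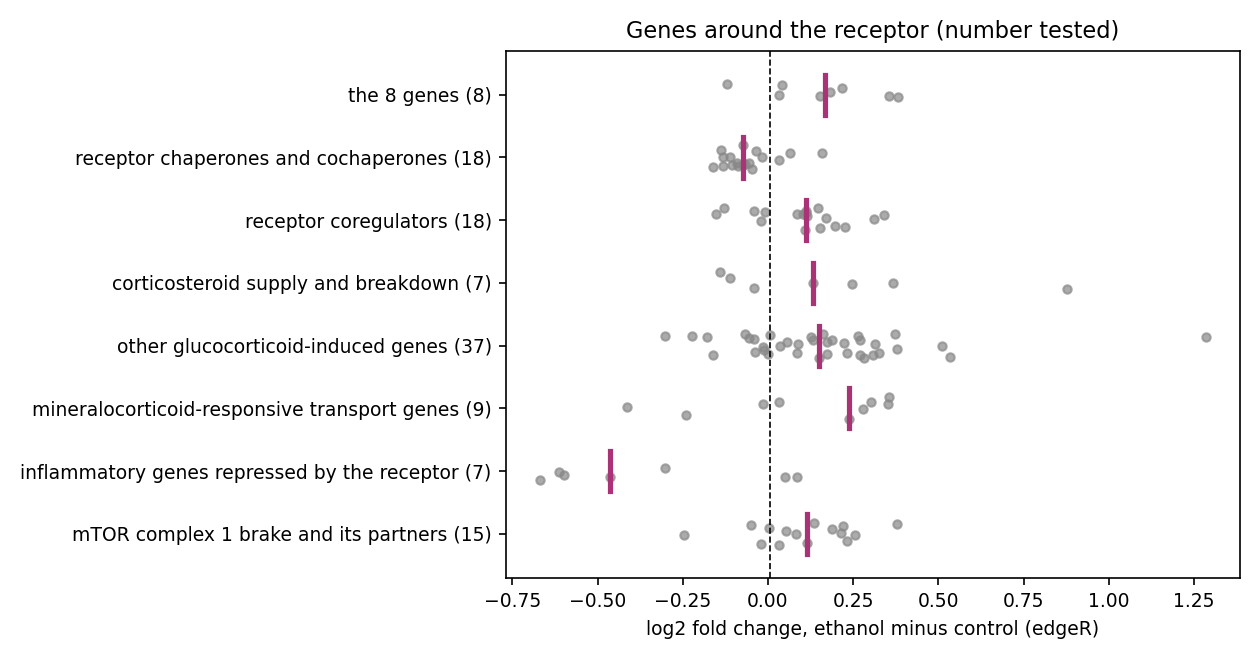
Log2 fold changes (x axis, ethanol minus control, edgeR) of the 8 genes and of 7 lists around the receptor, each grey point a tested gene (vertical position is spread for legibility), each purple bar the list's median, and the dashed line the median of all genes tested. Medians run from -0.46 for repressed inflammatory genes to 0.24 for mineralocorticoid-responsive transport genes, and 0 genes shown were called.

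Patterns over the 6 libraries were compared by the root mean square distance between log2 CPM values, each gene centred on its own mean, among 19522 genes averaging 1 CPM or more. The nearest to Nr3c1 were Hsd3b1, a steroid enzyme of Leydig cells, at a distance of 0.018, and the signalling gene Smad2 at 0.028. There were 1536 genes within 0.1 of Nr3c1, so that many genes shared its nearly flat pattern. Of the 8, Hsd11b1 had the widest range over the libraries, a 2.23-fold span in CPM, and its nearest genes were Itih3 at 0.136 and the predicted gene Gm42197 at 0.148, with 0 genes within 0.1. Log2 fold changes of both changed sign without ethanol library 3 (-0.04 and -0.17), and that of Gm42197 also without control library 2 (-0.06). Both genes were picked for their nearness to Hsd11b1 over these same libraries, so these shared sign changes are no separate result.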

How the data were processed

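One table held 6 libraries of mouse testis. Per the labels' protocols, ribosomal RNA was removed and a strand-specific kit for total RNA was used. HISAT2 and the build mm10 are named in the submitters' processing notes. How reads were counted, with which strand option and annotation, is stated nowhere in the sources used here, so reads of overlapping genes may be shared. Read counts per gene were deposited without normalization, per the file headers. TPM and FPKM values were computed by the authors, per the file headers; FPKM was not used further. The table had 0 other sample columns. Totals were 38935654 to 47420249 per library.

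Counts were tested over all genes with edgeR 4.0.16 in R 4.3.3: filterByExpr, TMM scaling, quasi-likelihood F-test, no covariate, Benjamini-Hochberg adjustment, threshold 0.05. Each standard error is the fold change over the root of F, and 95% intervals use the same degrees of freedom. All pairs of libraries differed by more than sampling noise (chi-square per gene at least 7.66). This value ran from 7.66 to 18.3 within a diet and from 8.96 to 26.2 between diets, so that the ranges overlapped. The highest was between control library 3 and ethanol library 1. The procedure was tested on simulated data, where only the largest simulated differences, wider than that of any of the 8 genes, had to be recovered.

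The 8 genes and the lists were chosen with earlier results of these data known. The text names all 8, up to 3 genes of smallest p per list with a mean of at least 0.5 CPM, and the 2 genes nearest in pattern to Nr3c1 and to the gene of widest range. Other genes named were chosen after their values were seen, as list members or paralogs. Some genes that this rule names are not reported here. Alternatives were RLE factors, library totals alone, DESeq2 1.42.0, no filter, limma-trend (limma 3.58.1) on log2(TPM + 1) or log2(TPM + 0.1), a block for the replicate number, and each library left out in turn.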

Additional observations from a re-analysis of the deposited data

How the results depend on the processing

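Over all genes, DESeq2 called 330 genes (203 higher, 127 lower) and the fit with the replicate number as a block called 15 (5 higher, 10 lower), where edgeR without the block called 0. Fits that left out 1 library called 0 to 3. None of the 8 genes was called under any of these settings, and the replicate block changed no call among them. The lowest adjusted p of any of them was 0.163, for Nr3c2 with DESeq2. Same-numbered libraries did not deviate together (r from -0.11 to 0.25, with 2 of 6 libraries closest to their own number), so the number was not treated as a pairing. The signs of the 8 genes were kept in 56 of 56 values under the other scalings, tests and filters and in 43 of 48 values with 1 library left out. Ranges over the libraries left out that crossed 0 were -0.0328 to 0.10 for Fkbp5, -0.12 to 0.14 for Ddit4, -0.15 to 0.46 for Hsd11b1, -0.0299 to 0.20 for Vcam1, -0.0085 to 0.14 for Icam1, -0.0375 to 0.36 for Itih3 and -0.17 to 0.36 for Gm42197. The 3 libraries of one diet lay apart for 2 of the 8 genes on TPM, Nr3c2 and Sgk1, against 16.1% of all genes. With library totals alone they lay apart for 3 of the 8, a scaling for which the share of all genes was not computed. The median of all genes moved from 0.0065 to at most 0.058, on log2(TPM + 0.1). The median of the paralogs was 0.030 and turned to -0.021 without control library 3. On log2(TPM + 1) estimates were smaller than by edgeR for Abcb1b (0.35), Nedd4l (0.10), Il1b (-0.25), Sgk2 (-0.35), Hsp90aa1 (-0.08) and Ptges3 (-0.08), and without ethanol library 1 that of Hsd3b1 was 0.09. The cause of these changes was not tested. Depth limits Hsd11b1 most, at 17 to 36 reads.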
